A study of Mus musculus with 2 samples.

Results

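The genes described are 5 transcription factor genes, Foxc1, Foxc2, Ebf1, Ebf2 and Ebf3, out of the 21849 genes of the count tables. They were chosen by name. They were followed in 2 single-cell RNA sequencing libraries of mouse costal-cartilage-derived stem cells (CDSCs), 1 of primary CDSCs and 1 of cultured CDSCs at passages 2 to 3. Per the study's methods, the cells came from enzymatically digested rib cartilage of newborn C57BL/6J mice that carried either the CD45.1 allele or a ZsGreen reporter, and were sorted as CD45-CD51+. The cultured CDSCs had been expanded in MEM with foetal bovine serum. In the labels, both libraries carry bone marrow as their tissue. Which of the 2 mouse lines and how many animals went into each library was not given in the sources used here. Each cell's transcripts were counted per gene by their molecular tags (UMIs, 1 for each captured molecule). Levels are given as CPM, the usual scaling of a gene's UMIs by all UMIs of the library or cluster. Neither group was replicated, so no test was performed, and all intervals are exact 95% intervals of the counting error.

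FOXC1 and FOXC2 are closely related forkhead proteins that bind DNA through a winged-helix domain and act in the embryo in somites, cartilage, bone and vessels. In adult bone marrow Foxc1 is known for its role in CXCL12-abundant reticular (CAR) cells, the stromal cells that keep the niche of blood stem cells. EBF1, EBF2 and EBF3 share a DNA-binding domain and a helix-loop-helix dimerisation motif. Ebf1 is best known from the B lineage and from fat cell differentiation, where it acts beside Pparg, Ebf2 from brown fat and from osteoblast progenitors, and Ebf3, together with Ebf1, from CAR cells.

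Foxc1 (ENSMUSG00000050295) and Foxc2 (ENSMUSG00000046714) are genes of 1 exon, of 5.844 kb and 2.725 kb. Their positions in GRCm38 (GENCODE M21, matched by gene identifier) are chr13:31806633-31812476 and chr8:121116171-121118895, both on the plus strand. Ebf1 (ENSMUSG00000057098), Ebf2 (ENSMUSG00000022053) and Ebf3 (ENSMUSG00000010476) are long and have many introns. Ebf1 spans chr11:44617317-45008091 on the plus strand (391 kb), Ebf2 chr14:67233292-67430918 on the plus strand (198 kb) and Ebf3 chr7:137193673-137314445 on the minus strand (121 kb). Foxc2 lies within a long protein-coding read-through model of the same strand, Gm20388, and 8 annotated models lie on the opposite strand of the Ebf genes. None of these 9 overlapping models was among the genes of the count tables, so reads of Gm20388, if any, could not be told from those of Foxc2.

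The promoters of 2 genes are shown as regulatory context, from the Foxc gene whose level was alike in both libraries and from the Ebf gene that was higher in culture. They are the sequence just before the annotated start, 5′ to 3′ on the gene's own strand, from RefSeq on GRCm38.p6. Capitals mark a match to CCCNNGGG, the palindromic core that EBF proteins bind.
Foxc1 promoter, chr13:31806396-31806632, plus strand: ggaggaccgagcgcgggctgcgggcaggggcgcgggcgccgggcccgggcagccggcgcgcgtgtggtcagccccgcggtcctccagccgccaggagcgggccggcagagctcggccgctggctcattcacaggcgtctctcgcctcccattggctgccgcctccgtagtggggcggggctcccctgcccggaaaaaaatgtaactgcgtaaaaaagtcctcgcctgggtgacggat
Ebf3 promoter, chr7:137314446-137314695, minus strand: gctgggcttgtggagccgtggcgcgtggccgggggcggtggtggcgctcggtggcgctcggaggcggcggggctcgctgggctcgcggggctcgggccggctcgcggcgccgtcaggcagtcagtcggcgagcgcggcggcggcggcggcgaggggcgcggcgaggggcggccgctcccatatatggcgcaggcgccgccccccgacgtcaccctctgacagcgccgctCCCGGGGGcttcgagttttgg
The windows of 250 bases held 70.8% G and C at Foxc1 and 80% at Ebf3, against a median of 52.4% over 32851 promoters. The EBF core stood once at Ebf3, beginning 21 bases before the start, and 11.8% of all promoters held such a match. The forkhead letters GTAAACA (3.17% of promoters, both strands searched) and the SOX letters ACAAAG (16.5%) stood in neither. The 2 starts of Ebf1 in the table lie inside the GENCODE gene and held none of these letters. For Foxc2 and Ebf2 no promoter is shown.

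After the cell filter 11746 primary CDSCs with 137148874 UMIs and 5338 cultured CDSCs with 330129909 UMIs remained. The depth per cell differed, with a median of 10026.5 UMIs in primary and 56864.5 in cultured CDSCs. The chondrocyte markers that the sorted tissue should carry summed to 91370 CPM in primary CDSCs and to 1043 CPM in cultured CDSCs, with 13 of 13 at least 4-fold lower. The cultured library held 872 cells of a median of 1284.5 UMIs, which formed cluster 3 below, and 5460 of its 10798 barcodes did not pass the filter. The libraries shared 15 barcodes among the cells kept.

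Foxc1 stood at the same level before and after culture, whereas Foxc2 was 4.65-fold lower in cultured CDSCs. Foxc1 was counted with 10440 UMIs in primary CDSCs, or 76.1 CPM (74.7 to 77.6), and with 25324 UMIs in cultured CDSCs, or 76.7 CPM (75.8 to 77.7). The log2 ratio of cultured over primary CPM was 0.01 (-0.02 to 0.04). Foxc2 was counted with 7682 UMIs, or 56.0 CPM (54.8 to 57.3), in primary CDSCs and with 3977 UMIs, or 12.05 CPM (11.7 to 12.4), in cultured CDSCs, a log2 ratio of -2.22 (-2.27 to -2.16). The paralogs, near one another in primary CDSCs, were thus far apart in cultured CDSCs.

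Of the Ebf genes, Ebf1 was the most abundant in both libraries and changed least. It had 49029 UMIs and 357 CPM (354 to 361) in primary CDSCs and 120560 UMIs and 365 CPM (363 to 367) in cultured CDSCs, a log2 ratio of 0.03 (0.02 to 0.05). Of the genes that reached 1 CPM in one of the libraries, 97.3% lay below Ebf1 in primary and 97.0% in cultured CDSCs. Ebf3 was 1.90-fold higher in cultured CDSCs, at 11.9 CPM (11.4 to 12.5) from 1635 UMIs against 22.7 CPM (22.1 to 23.2) from 7480 UMIs, a log2 ratio of 0.93 (0.85 to 1.00). Ebf2 was rare. It had 348 UMIs and 2.54 CPM (2.28 to 2.82) in primary CDSCs and 169 UMIs and 0.512 CPM (0.438 to 0.595) in cultured CDSCs, a log2 ratio of -2.31 (-2.58 to -2.04). Most of the primary Ebf2 UMIs came from 289 cells of mixed markers (cluster 9 below), and without them and the haematopoietic-like cells of culture the log2 ratio of Ebf2 was -0.43.

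In both libraries the order of the CPM levels was Ebf1, Foxc1, then Foxc2 and Ebf3, and Ebf2 last, with Foxc2 above Ebf3 in primary CDSCs and below it in cultured CDSCs. No neighbours in either order had overlapping intervals. These are 3′ UMI counts, at about 1 per captured transcript, and were not divided by gene length. Among the 5 genes, none was higher in cultured CDSCs by 4-fold or more, and 2 were lower by that much. Of all 12839 genes that reached 1 CPM in one library or the other, 12.6% were higher and 7.48% lower by 4-fold or more. The members had a median log2 ratio of 0.01, against 0.36 for all these genes, so Foxc1 and Ebf1 ranked above only 36.9% and 37.6% of genes. With TMM scaling, which lowered all log2 ratios by 0.20, the log2 ratios of Foxc1 and Ebf1 were -0.19 and -0.17, that is, of the other sign.

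**Figure D1:**
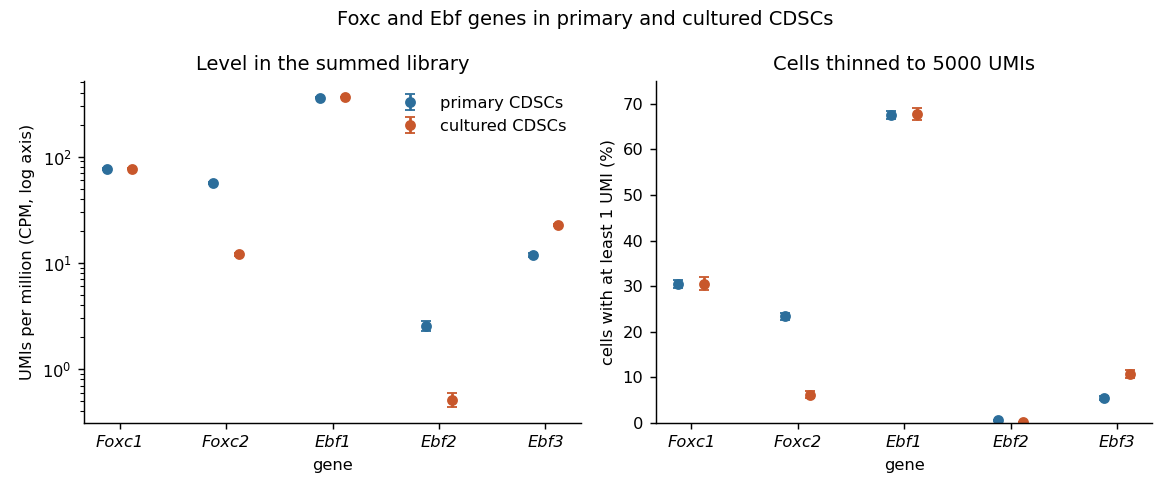
Left, the level of each gene in the summed library (CPM, log axis), and right, the percentage of cells with at least 1 UMI after every cell was thinned to 5000 UMIs, for primary (blue) and cultured (orange) CDSCs. Bars are exact 95% intervals of the counting error. Foxc1 and Ebf1 points coincide, Foxc2 stands at 56.0 and 12.05 CPM and Ebf3 at 11.9 and 22.7 CPM.

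The shares of cells in which the genes were detected depended on the depth per cell. Each cell was therefore thinned to 5000 UMIs, which left 10959 primary and 4543 cultured CDSCs and left out 787 and 795 shallower cells. Foxc1 was then detected in 30.4% of primary and 30.5% of cultured CDSCs. Foxc2 was detected in 23.4% (22.6 to 24.2) and 6.19% (5.50 to 6.93). Ebf1 was detected in 67.6% and 67.7%, Ebf3 in 5.48% (5.07 to 5.93) and 10.7% (9.79 to 11.6), and Ebf2 in 0.547% (60 cells) and 0.0880% (4 cells). Without thinning the shares for Foxc2 were 39.5% of primary and 40.9% of cultured CDSCs, so the difference in shares appeared at equal depth and not without it. Conversely, Foxc1 was found in 51.0% and 77.9% and Ebf3 in 11.3% and 41.9% of unthinned cells. After thinning, 2945 of the 10959 primary and 1376 of the 4543 cultured CDSCs held 3 or more Ebf1 UMIs. At least 2 Ebf1 UMIs were held by 43.4% of primary and 45.4% of cultured CDSCs. Foxc2 had 3 or more UMIs in 133 of the primary CDSCs and in 1 of the cultured CDSCs. For comparison, 9 haematopoietic-like cells of the cultured library, a lineage that should lack Foxc genes, had a median of 35946 UMIs before thinning. Among them 4 held an Ebf1 UMI (44.4%), 2 a Foxc1 UMI (22.2%), 3 an Ebf3 UMI and none a Foxc2 or Ebf2 UMI, and 0 of 9 cells allows a share of up to 33.6%. Their summed levels were 109 CPM (78.9 to 146) for Ebf1 and 22.2 CPM (10.2 to 42.1) for Foxc1. All 44 Ebf1 UMIs came from 4 cells and all 9 Foxc1 UMIs from 2, and the intervals leave out such differences between cells. Whether these UMIs came from free RNA or from doublets was not tested.

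Primary CDSCs were clustered with the 5 genes left out, which gave 11 clusters. Clusters 1 to 8, 10 and 11 held at least 3 chondrocyte markers at 1000 CPM or more and were chondrocyte-like by abundance. Cluster 9, with 4 fibroblast markers in excess, was not judged by abundance. It held 25677 CPM of Col2a1, the main collagen of cartilage, against 53268 CPM in the library. Foxc1 was present in every cluster. It was highest in cluster 3, which is led by Tll1, Clu and Spp1, at 115 CPM (109 to 120). Clusters 7, 1 and 8, whose intervals overlapped, followed at 87.9, 87.1 and 86.7 CPM. It was lowest in cluster 11, a group of 126 cells led by Pknox2, Jazf1 and Zbtb16, at 33.9 CPM (23.1 to 48.2). Foxc2 had another order. It was highest in cluster 2, led by Fam43a, Trf and Chac1 and including Klf5, at 76.1 CPM (72.4 to 79.9), and clusters 1, 4 and 3 followed at 63.9, 62.9 and 58.7 CPM with overlapping intervals. Foxc2 was also lowest in cluster 11, at 10.9 CPM (5.25 to 20.1) from 10 UMIs. The cells of cluster 11 had a median of 3.46% mitochondrial UMIs against 1.84% in the library, and their part in the low Foxc levels was not tested. No group of so little Foxc2 formed at resolution 1.0 or with the members among the genes, where the lowest levels over clusters of at least 50 cells were 33.0 and 34.8 CPM and the highest Ebf1 levels 559 and 557 CPM, in clusters with Tll1 and Clu among their leading genes. With 30 principal components the lowest Foxc2 was at 14.2 CPM, in 159 cells with 714 CPM of Ebf1. The leading genes of these cells were mast cell genes such as Tpsb2 and Cma1, but also Slpi, a leading gene of cluster 11. How many of them belonged to cluster 11 was not tested. The clusters with the least Foxc2 apart from cluster 11 were cluster 9, at 34.0 CPM (27.3 to 41.8), and clusters 10, 6, 5 and 8, at 41.1 to 44.7 CPM.

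In cultured CDSCs Foxc2 was low throughout. Over the 7 clusters of at least 50 cells it ran from 8.54 CPM (6.27 to 11.4) in cluster 3, which holds the shallow cells, to 18.8 CPM (17.3 to 20.4) in cluster 5, led by Mmp13, Csmd1 and Sfrp4. Clusters 6 and 7 stood at 15.6 and 13.9 CPM, and clusters 1, 2 and 4 at 11.6, 10.9 and 9.76 CPM. Thus 10 of the 11 primary clusters lay above all 7 cultured clusters for Foxc2. Foxc1 ranged from 33.9 to 115 CPM over the primary and from 59.7 to 143 CPM over the cultured clusters. In culture it was highest in cluster 6, the 280 cells led by Nr5a2, Barx1 and Sfrp2, at 143 CPM (139 to 148), then in cluster 5 at 106 CPM (103 to 110) and in cluster 1 at 73.9 CPM. Clusters 3, 7 and 2 were lowest, at 61.9, 60.7 and 59.7 CPM, with overlapping intervals. Cluster 4, the dividing cells led by Aspm, Pbk and Knl1, held 71.8 CPM. Primary dividing cells (cluster 10) held 73.1 CPM. With 30 principal components in place of 10, however, 127 cultured cells led by the division genes Kif2c, Cenpe and Cdc20 formed a group of their own with 7.71 CPM of Foxc1 and 1.54 CPM of Foxc2. The extremes of the cultured clusters were then 17.5-fold apart for Foxc1 and 11.9-fold for Foxc2, against 2.40-fold and 2.21-fold with 10.

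**Figure D2:**
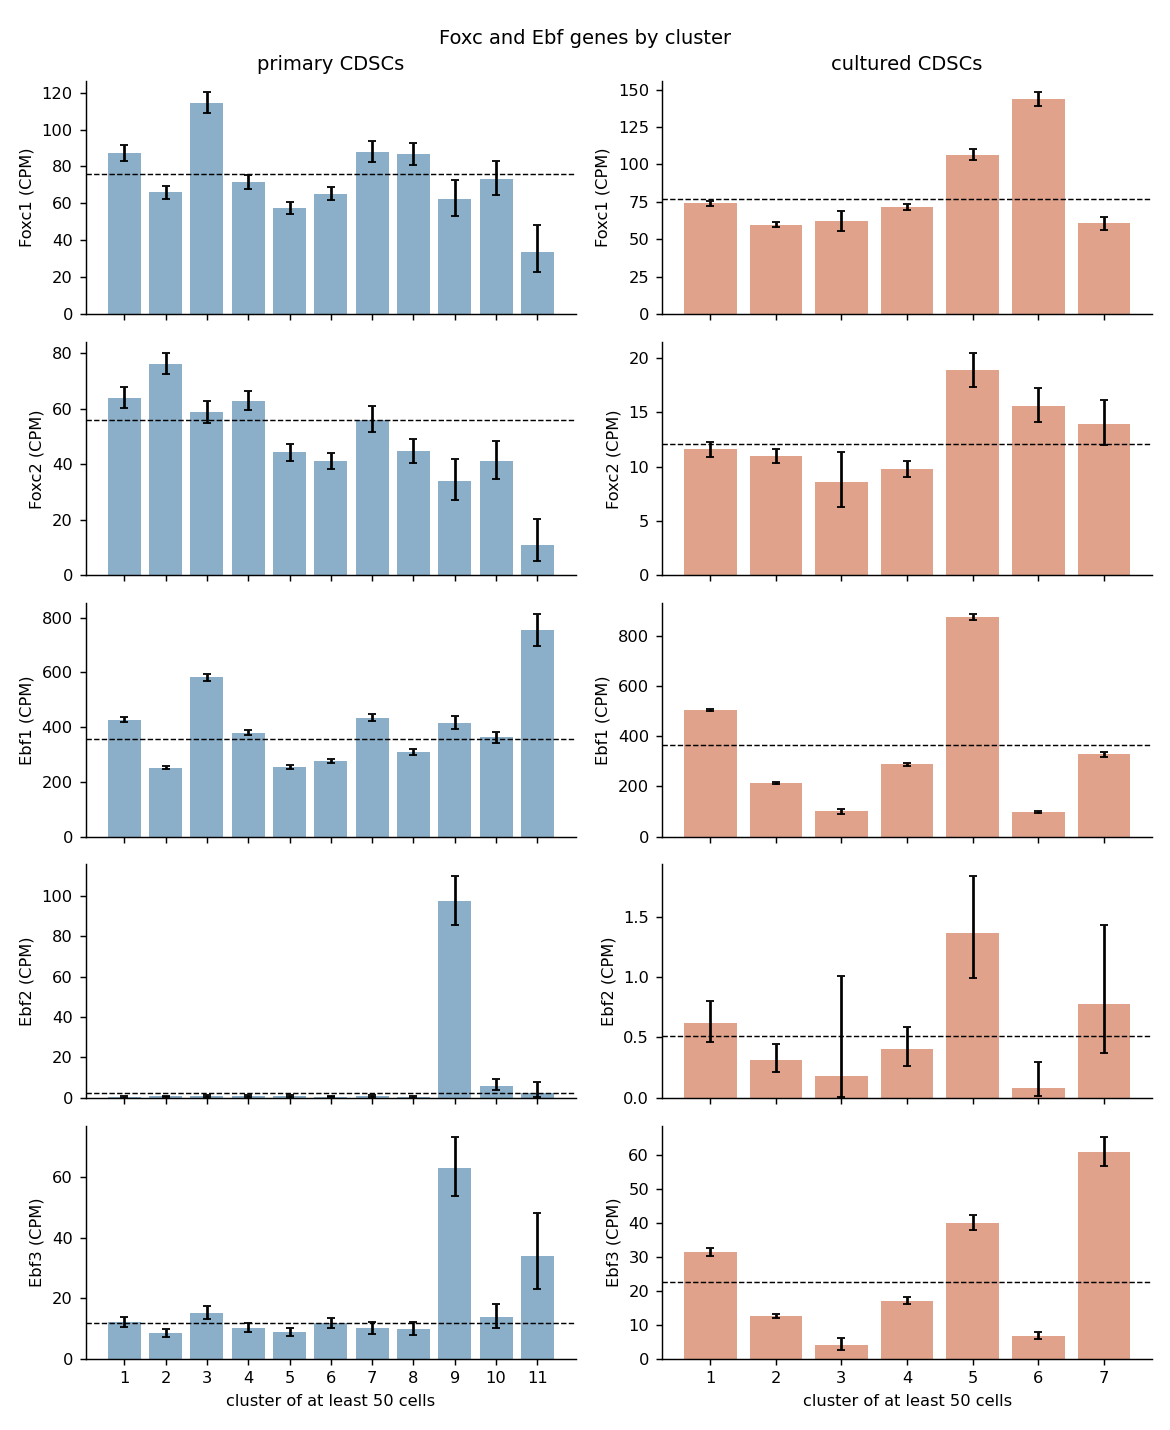
Level of each gene (CPM, linear axes that start at 0, each panel with its own scale) in the clusters of at least 50 cells of primary (left) and cultured (right) CDSCs. Bars carry exact 95% Poisson intervals and the dashed line is the level of the whole library. Ebf2 stands out in primary cluster 9 at 97.3 CPM, Ebf1 in cultured cluster 5 at 875 CPM, and Foxc1 in cultured cluster 6 at 143 CPM.

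Ebf1 was high in every primary cluster, and its extremes lay 2.99-fold apart. The highest level was in cluster 11, at 753 CPM (698 to 812), where the Foxc genes were lowest, and the next in cluster 3, at 581 CPM (569 to 594), where Foxc1 was highest. Clusters 6, 5 and 2 were lowest, at 274, 255 and 252 CPM, and the intervals of clusters 5 and 2 overlapped. In cluster 2, the cluster highest in Foxc2, Ebf1 was thus at its lowest. Ebf3 lay between 8.46 CPM (cluster 2; 7.26 to 9.79) and 15.3 CPM (cluster 3; 13.3 to 17.5) in clusters 1 to 8 and was higher in cluster 11, at 33.9 CPM (23.1 to 48.2), and in cluster 9, at 63.0 CPM (53.7 to 73.3). Genes of 100 kb or more, such as the Ebf genes, took between 10.7% (cluster 2) and 16.2% (cluster 9) of the UMIs of a primary cluster, with 15.7% in cluster 3 and 14.7% in cluster 11. Whether intronic reads had been counted was not given in the sources used here, and the part of these shares in the Ebf levels was not tested.

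Most of the Ebf2 of primary CDSCs was counted in cluster 9. This cluster of 289 cells held 255 of the 348 Ebf2 UMIs of the library (73.3%) at 97.3 CPM (85.7 to 110), while clusters 1 to 8 held 3 to 17 UMIs each, at 0.234 to 0.771 CPM. Cluster 10 stood at 5.83 CPM from 20 UMIs in 4 cells and cluster 11 at 2.19 CPM from 2 UMIs. Cluster 9 carried markers of several cell types, among them the mast cell genes Tpsb2 and Cma1, the tendon gene Thbs4 and Col1a1, and was clustered again. Of its 8 sub-clusters, sub-cluster 4, 36 cells named smooth muscle and pericyte-like, with Rgs5 and Abcc9 foremost, held 162 Ebf2 UMIs in 25 cells, at 306 CPM (261 to 357) and 46.6% of all Ebf2 in the library. Sub-cluster 3, 39 cells led by Chodl, Cilp and Meox1 that were left unnamed, held 62 Ebf2 UMIs in 21 cells, at 374 CPM (287 to 480). The intervals of these 2 groups overlapped. The 3 fibroblast-like sub-clusters stood at 11.2, 11.2 and 74.6 CPM and the tenocyte-like cells at 20.4 CPM, from 2 to 15 UMIs each. Sub-cluster 8, which mixes endothelial and mast cell genes, and the unnamed sub-cluster 7 held 0 Ebf2 UMIs, which allows up to 12.6 and 22.4 CPM.

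The same sub-clusters differed in the other members. Ebf1 stood at 1178 CPM (1018 to 1355) in sub-cluster 3 and at 671 CPM (603 to 744) in sub-cluster 4, but at 25.5 CPM (8.28 to 59.5) in the tenocyte-like cells, where 4 of 43 cells held it (9.30%, median 4297 UMIs). All 11 primary clusters lay above this interval, while sub-clusters 5 and 7, at 50.6 CPM (23.1 to 96.0) and 60.7 CPM (29.1 to 112), overlapped it. Foxc2 was at 0 UMIs in sub-cluster 3, which allows up to 22.3 CPM, and at 43.4 CPM in sub-cluster 4. Foxc1 was at 18.1 CPM from 3 UMIs in sub-cluster 3 and at 62.3 CPM in sub-cluster 4. Ebf3 was at 103 and 98.2 CPM in these 2 groups and highest in sub-cluster 8, at 160 CPM from 47 UMIs. The pericyte-like cells thus held the 3 Ebf genes together with both Foxc genes, and sub-cluster 3 the 3 Ebf genes at little or no Foxc. These groups hold 26 to 52 cells of 1 library, with a median of 13201.5 UMIs per cell in the pericyte-like cells, and the part of doublets with chondrocytes in their levels was not tested.

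**Figure D3:**
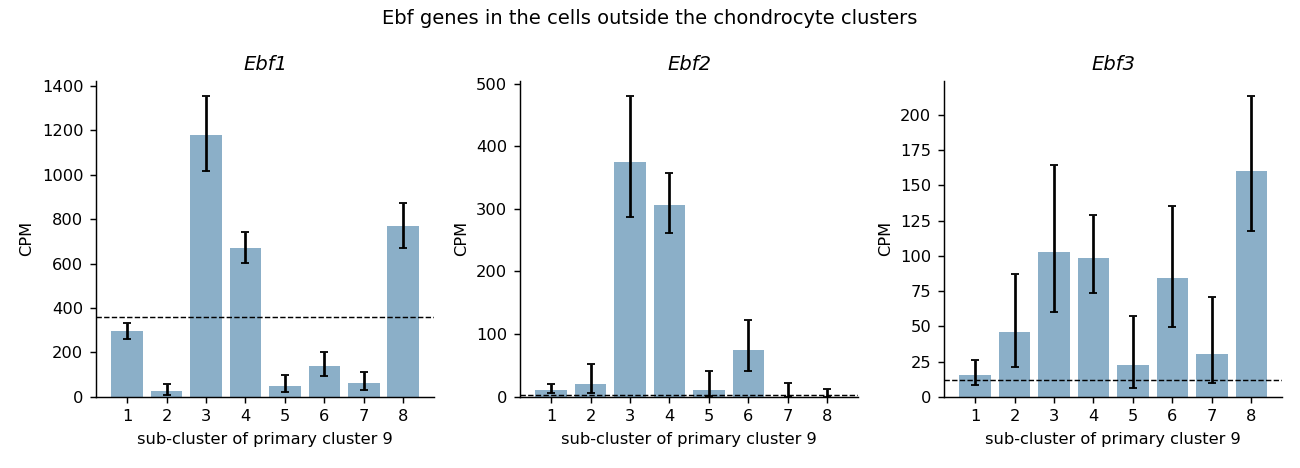
Ebf1, Ebf2 and Ebf3 (CPM, linear axes from 0) in the 8 sub-clusters of primary cluster 9, with exact 95% Poisson intervals and the library's level as a dashed line. Ebf2 is high in sub-clusters 3 (374 CPM) and 4 (306 CPM), Ebf1 is highest in sub-cluster 3 and Ebf3 in sub-cluster 8.

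In cultured CDSCs the Ebf1 levels of the clusters moved further apart. Cluster 5 held 875 CPM (865 to 885), cluster 1, led by Tox, Bach2 and Lmo7, held 505 CPM (501 to 510), and cluster 2, led by Angptl7, Klk8 and Lgals3, held 213 CPM (210 to 216). The lowest were cluster 3, at 99.7 CPM (91.5 to 108), and cluster 6, at 98.7 CPM (94.8 to 103). These lie within the interval of the haematopoietic-like cells, whose 44 Ebf1 UMIs came from 4 of 9 cells. That interval therefore sets no background level. Unthinned, Ebf1 was detected in 85.0% (80.3 to 89.0) of the cells of cluster 6 and 27.1% (24.1 to 30.1) of cluster 3. Among the 9 cells the share was 44.4% (13.7 to 78.8). Depth differed, with medians of 86359, 1284.5 and 35946 UMIs in these 3 groups. With 30 principal components the 127 dividing cells described above stood at 37.8 CPM (31.9 to 44.4). The extremes of the 7 clusters were 8.86-fold apart. Ebf3 was highest in cluster 7, whose leading genes included Ptn, Thy1 and Crabp1, at 61.1 CPM (56.9 to 65.5), followed by cluster 5 at 40.2 CPM and cluster 1 at 31.6 CPM, and it was lowest in clusters 6 and 3, at 6.85 and 3.996 CPM. Of the 7 clusters, 4 (2, 3, 4 and 6) lay within the interval of the haematopoietic-like cells for Ebf3 (7.40 CPM, 1.53 to 21.6, from 3 UMIs). Ebf2 reached 1.37 CPM (0.990 to 1.84; 43 UMIs in 15 cells) in cluster 5 and was at or under 0.778 CPM in the others. The share of UMIs from genes of 100 kb or more was 17.5% in cluster 5, 16.9% in cluster 1, 9.47% in cluster 2, 5.37% in cluster 3 and 13.7% in cluster 6, against 13.2% in the library. Its part in the high Ebf1 of clusters 5 and 1 was not tested.

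Cluster 6 was also the cluster with the most Cxcl12, the chemokine that holds blood stem cells in the niche, at 1868 CPM against 549 CPM in the whole cultured library. It had the most Foxc1 and, together with cluster 3, whose interval overlapped, the least Ebf1. Over the 7 clusters Cxcl12 stood at 388, 286, 466, 614, 737, 1868 and 464 CPM in clusters 1 to 7. The 2 clusters highest in Foxc1, 6 and 5, were those highest in Cxcl12. Below them the order was not kept, since cluster 1 was the third in Foxc1 and the sixth in Cxcl12. Kitl, the niche growth factor for stem cells, was low in cluster 6, at 22.9 CPM, and highest in clusters 1 and 2, at 77.1 and 70.1 CPM. Cluster 5, in turn, paired the most Ebf1 and Ebf2 with the most Pparg, the master regulator of fat cells, at 263 CPM, with Lpl, a lipoprotein lipase, at 19.1 CPM, with Cebpa at 5.53 CPM and with Zfp423, the zinc finger partner of EBF proteins, at 11.8 CPM. All 4 were highest there among the 7 clusters. So were the bone factor Runx2, at 231 CPM, the tendon marker Fmod, at 174 CPM, and Pdgfrb, at 106 CPM. Col2a1 was highest in cluster 6, at 1040 CPM, and Col1a1 in cluster 7, at 1310 CPM. Pparg stood at 99.99, 26.6, 10.5, 49.8, 263, 14.1 and 71.5 CPM in clusters 1 to 7.

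**Figure D4:**
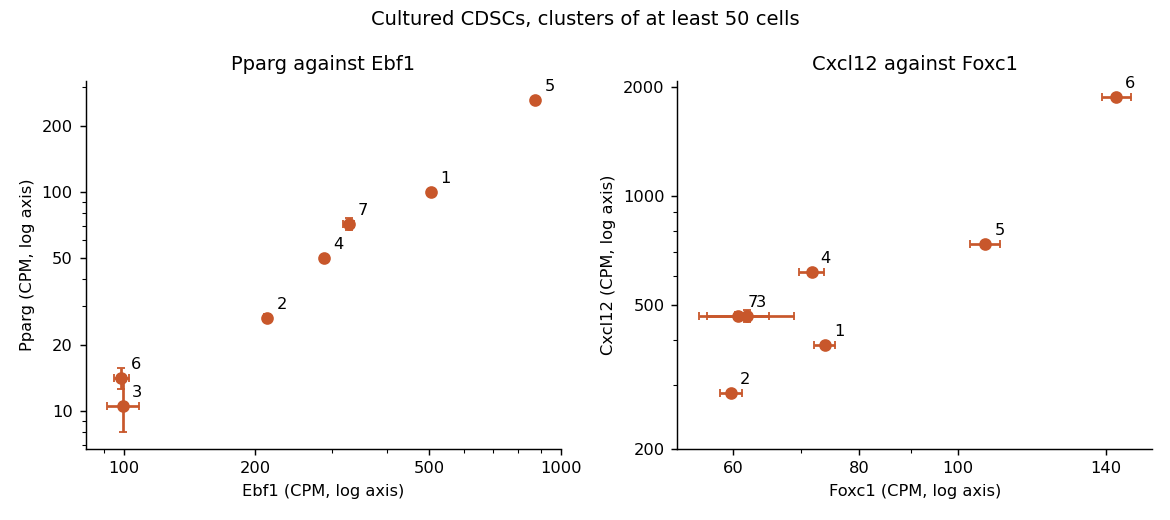
Pparg against Ebf1 (left) and Cxcl12 against Foxc1 (right) in the 7 numbered clusters of at least 50 cells of the cultured library, in CPM on log axes with exact 95% Poisson intervals. Pparg is ordered as Ebf1 except in clusters 3 and 6, and cluster 6 lies apart with the most Foxc1 (143 CPM) and the most Cxcl12 (1868 CPM).

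The same pairs were compared cell by cell at 5000 UMIs, between cells in which a member was and was not detected. At this depth a cell without a UMI may still express the gene. Cultured CDSCs with Ebf1 held 126 CPM of Pparg (121 to 132) and those without 29.1 CPM, a ratio of 4.35. It was the highest ratio among 8480 genes of at least 10 CPM, whose median was 1.09 and of which 10% lay above 1.43. The difference was found within clusters also. In cluster 5 Pparg stood at 317 CPM (297 to 337) in 599 cells with Ebf1 and at 70.4 CPM (42.4 to 110) in 54 without, and in cluster 4 at 79.0 and 24.0 CPM. In clusters 1, 2 and 6 the ratios were 2.15, 1.57 and 5.10. In cluster 6 the ratio rests on 12 and 5 Pparg UMIs. In clusters 2 and 7, the latter at a ratio of 1.45, the intervals overlapped. Cluster 3 held 2 and 5 Pparg UMIs and gave no ratio. In primary CDSCs Pparg was at 12.6 CPM in cells with and 13.0 CPM in cells without Ebf1, a ratio of 0.969. Ebf1 and Pparg are both long genes, of 391 and 129 kb. Among cultured CDSCs with Ebf1, Zfp423 was 4.29-fold, Cebpa 2.93-fold, Runx2, the master regulator of bone-forming cells, 1.99-fold and Pdgfrb 1.64-fold as high as in those without. Zfp423 and Cebpa rested on 10 and 7 UMIs in the cells without Ebf1. Zfp423 and Runx2 are long genes too, of 298 and 319 kb. The part of gene length in the ratios by Ebf1 was not tested.

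Foxc1 went with Cxcl12. Cultured CDSCs with Foxc1 held 759 CPM of Cxcl12 (739 to 780) and those without 501 CPM, a ratio of 1.52, where the median of 8480 genes was 1.02 and 0.330% of genes had a higher ratio. Within clusters the ratio lay between 1.08 (cluster 5) and 1.66 (cluster 4), above 1 in 7 of 7 clusters, with overlapping intervals in cluster 5. Col2a1, the main collagen of cartilage, had a ratio of 1.44 in the same comparison. In cells with Ebf1, Cxcl12 was lower than in cells without, at 535 against 672 CPM. With and without Ebf3 the levels were 622 and 575 CPM, while Vcam1, an adhesion molecule of stromal cells, had a ratio of 1.75, Lpl of 2.33 (27 UMIs in 485 cells) and Csf1, the macrophage growth factor, of 1.35. At 10000 UMIs per cell the ratios were 1.21 for Vcam1, 1.496 for Lpl (66 UMIs in 823 cells) and 1.43 for Csf1. Cluster 7, the highest in Ebf3, was also highest in Vcam1 (76.7 CPM) and Csf1 (398 CPM) among the 7 clusters. These ratios by Ebf3 were not compared within clusters. With Foxc2 the ratio for Cxcl12 was 1.21. The ratios for Kitl were 0.929 with Foxc1, 0.923 with Foxc2, 1.12 with Ebf3 and 1.25 with Ebf1. In primary CDSCs these niche genes were rare, and the 60 cells with Ebf2 held 15 Cxcl12 and 14 Lpl UMIs, at 50 and 46.7 CPM, against 70 and 50 UMIs, at 1.28 and 0.918 CPM, in the 10899 cells without. Cluster 9, which held most Ebf2, was also the primary cluster with the most Cxcl12, at 35.5 CPM. Primary cells with Ebf3 held 17.6 CPM of Kitl against 5.19 CPM without. Cluster 9 was the primary cluster highest in both, with 63.0 CPM of Ebf3 and 66.8 CPM of Kitl. Kitl by Ebf3 was not compared within clusters.

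**Figure D5:**
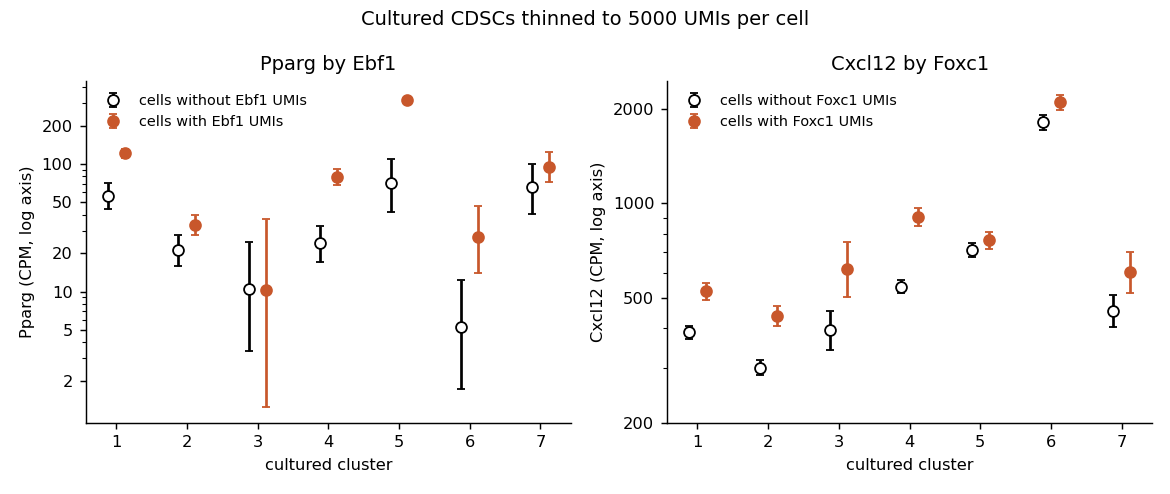
Pparg in cells with and without Ebf1 (left) and Cxcl12 in cells with and without Foxc1 (right), within each cultured cluster of at least 50 cells, at 5000 UMIs per cell (CPM, log axes, exact 95% Poisson intervals). Pparg is higher with Ebf1 in 6 of 7 clusters, cluster 3 excepted, and Cxcl12 is higher with Foxc1 in 7 of 7.

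Most pairs of members were detected together about as often as their separate shares give. At 5000 UMIs at least 1 of the 5 genes was detected in 83.1% of primary and 79.5% of cultured CDSCs. Most cells held 1 or 2 of them, 46.2% and 29.8% in primary and 49.0% and 25.5% in cultured CDSCs, and 1 primary and 0 cultured CDSCs held all 5. Foxc1 and Foxc2 were found together in 821 primary CDSCs, 1.06 times (0.985 to 1.13) the number expected from their separate shares, and in 90 cultured CDSCs, 1.05 times (0.844 to 1.29). Foxc1 and Ebf1 were found together 1.02 and 1.03 times as often. Of the 20 ratios, 10 pairs in each library, 2 had an interval that did not reach 1. Ebf1 and Ebf3 were found together in 402 cultured CDSCs, 1.22 times (1.11 to 1.35) the expected number. Ebf2 and Ebf3 were found together in 15 primary CDSCs against 3.29 expected, 4.56 times (2.55 to 7.52). Of these 15 cells, 9 lay in cluster 9, where the ratio was 1.59 (0.729 to 3.03), and 6 lay outside it, against 1.82 expected there.

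The genes whose levels ran most like those of a member were read over the clusters of each library, as Pearson's r of log2(CPM + 1). There were 11 primary and 7 cultured clusters, of 1 library each, differing in depth. The search ran over 7672 genes in primary and 8481 in cultured CDSCs, all of at least 10 CPM. Over so few clusters, a search of so many genes gives high values of r in any case. Ebf1 ran with Tcf7l2, a Wnt effector (r = 0.98), Fign and Srpk2 in primary CDSCs and with Pparg (0.990), Zfp385b and Thbs2 in cultured CDSCs. Tcf7l2, of 192 kb, and Pparg are long genes, as is Ebf1. The part of gene length in these values was not tested. Foxc2 ran with Ier2 (0.977) and Fos (0.964), both immediate early genes, and with Tsc22d1 in primary CDSCs. Without cluster 11, where Ier2 stood at 412 CPM against 2641 CPM in the library, the values for Ier2 and Fos were 0.915 and 0.825. In cultured CDSCs it ran with Per3, a clock gene, Slc41a1 and Smarcd3. Foxc1 ran with Spsb4, Cfl2 and Cdip1 in primary and with Rbpj, the Notch effector (0.977), Itpr2 and Ikbkg in cultured CDSCs. Without the most extreme cluster (primary 11, cultured 6) these lay between 0.891 and 0.909 in primary and between 0.861 and 0.933 in cultured CDSCs. Ebf3 ran with Ammecr1, Pygb and Mtor in primary and with Gcnt4, Cacna1c and Tmeff1 in cultured CDSCs. Ebf2 ran with Ppp1r2, Thbs4 and Tmsb10 in primary CDSCs, through cluster 9, and with Fmod, Adam23 and Itm2a in cultured CDSCs, where it had 1 to 56 UMIs in a cluster. No gene was named for the same member in both libraries. Between the members, Foxc1 and Foxc2 had r = 0.791 in primary and 0.699 in cultured CDSCs and Ebf2 and Ebf3 0.844 and 0.856, while Foxc2 and Ebf3 had -0.647 and 0.508.

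The relatives and partners of the members were read next. Ebf4 stood at 2.79 and 1.08 CPM in primary and cultured CDSCs, Zfp423 at 7.63 and 2.95 CPM, and Zfp521, which binds EBF1 as Zfp423 does, at 176 and 169 CPM, so that 0 of these 3 genes were 4-fold apart. Of 22 forkhead genes that reached 1 CPM, 0 were 4-fold higher and 5, Foxc2 among them, 4-fold lower or more, with a median log2 ratio of -0.43. The highest forkhead genes were Foxn3 (208 CPM), Foxo1 (168 CPM) and Foxo3 (144 CPM) in primary CDSCs and Foxp1 (248 CPM), Foxn3 (96.8 CPM) and Foxc1 in cultured CDSCs. Foxc1 went from rank 5 to rank 3 among the 45 forkhead genes, and Foxc2 from rank 7 to rank 14. Beside the Foxc genes in the genome, Gmds stood at 270 and 119 CPM, Foxf1 at 13.2 and 15.2 CPM and Mthfsd at 17.7 and 18.6 CPM, so that 0 of these 3 neighbours were 4-fold apart.

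Of the 9 CAR and perivascular stromal genes with at least 1 CPM, 6 were at least 4-fold higher in cultured CDSCs and 0 lower, with a median log2 ratio of 3.38 against 0.36 for all genes. Cxcl12 stood at 1.32 and 549 CPM, Kitl at 5.94 and 61.8 CPM, Csf1 at 14.6 and 224 CPM, Pdgfra at 15.9 and 85.6 CPM and Vcam1 at 0.634 and 19.1 CPM. Il7, the lymphoid growth factor, had 5 and 897 UMIs. Pdgfrb and Lpl were 1.63 higher on the log2 scale. Lepr, the leptin receptor that marks marrow stroma, stood lower, at 2.30 and 0.991 CPM, and Adipoq had 4 and 6 UMIs. Foxc1 and Ebf1 were level, Foxc2 and Ebf2 lower and Ebf3 higher in the library in which these niche genes were higher.

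Of the chondrogenic transcription factors, 0 of 6 were higher and 2 were lower by 4-fold or more in culture. Sox9, the master regulator of cartilage, stood at 1308 and 81.2 CPM, a log2 ratio of -4.01, and Barx2 at 1.82 and 0.254 CPM. Sox5, Sox6 and Trps1 were lower by 0.87 to 1.79 on the log2 scale, and Runx3 stood at 10.99 and 13.4 CPM. Of 9 hedgehog and PTHrP genes, a pathway with which Foxc genes are linked in the growth plate, 5 were at least 4-fold lower and 1 higher. Ihh had 579 and 27 UMIs, Pthlh 530 and 38 UMIs and Gli1, the target gene of the pathway, 547 and 4 UMIs, while Pth1r stood at 61.6 and 7.86 CPM and Gli2 at 74.7 and 14.3 CPM. Ptch1, Smo and Gli3 were less than 4-fold apart, and Col10a1 was higher, at 0.598 and 3.11 CPM. Foxc1 and Ebf1 were thus level between libraries between which Sox9 was not. Of the fat cell factors, Pparg stood at 13.2 and 74.5 CPM and Klf15 at 15.3 and 2.96 CPM, while Cebpa, Cebpb and Cebpd were less than 4-fold apart. B lineage transcripts were close to absent, with 2.32 and 1.49 CPM for the sum of 9 genes, beside the high Ebf1. Vpreb1, the only one of them to reach 1 CPM, stood at 0.474 and 1.15 CPM (65 and 380 UMIs, a log2 ratio of 1.28), Cd79a at 0.882 and 0.167 CPM and Pax5 at 26 and 12 UMIs.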

How the data were processed

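The authors had processed 10x Genomics 3′ libraries with Cell Ranger 7.0.0 on GRCm38 (the submitters' processing notes list GRCm39 beside it, and which of them was used was not settled) and deposited the UMI counts of each gene in each barcode, without normalisation. The annotation release was not given in the sources used here. A barcode was kept as a cell if it had 500 or more genes, 1000 or more UMIs and no more than 10% of its UMIs from mitochondrial genes. Scrublet called 0 primary and 1 cultured doublet and had not worked, so doublets were kept, and the cells of highest score (0.8% per 1000 barcodes) were left out as an alternative.

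The counts of the kept cells were summed per library. Ratios used a floor of 3 counts (0.0219 CPM in the primary, 0.00909 CPM in the cultured library), with exact conditional intervals, Poisson intervals for levels and Clopper-Pearson intervals for shares. Cells were thinned without replacement. The ratio code was tested on simulated data. Each library was clustered alone with scanpy 1.11.5 and leidenalg 0.10.2 (2000 variable genes without the members, 10 principal components, 20 neighbours, resolution 0.5). A cluster was named from at least 3 markers at 50 CPM or more and in 4-fold excess. TMM factors came from edgeR 4.0.16, without a test.

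The members, lists and markers were chosen with earlier results of these data known. Genes were named as members, as list genes of at least 1 CPM, as the 3 highest forkhead genes or as the 3 genes most like a member over clusters. Pparg, Cebpa, Zfp423 and Runx2 by Ebf1, and the comparisons within clusters, were added after their values were seen. Some genes are not reported here.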

Additional observations from a re-analysis of the deposited data

Results flagged for a closer look

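The barcodes that did not pass the cell filter entered no comparison, and all 5 genes were counted there above the floor of 3 counts (14.3 CPM in 150 primary barcodes, 0.476 CPM in 5460 cultured barcodes). In the primary barcodes Foxc1 stood at 33.3 CPM from 7 UMIs, Foxc2, Ebf2 and Ebf3 at 28.6 CPM from 6 UMIs each, and Ebf1 at 723 CPM from 152 UMIs. In the cultured barcodes, which had a median of 775 UMIs, Foxc1 stood at 69.5 CPM, Foxc2 at 10.5 CPM, Ebf1 at 469 CPM, Ebf2 at 0.794 CPM from 5 UMIs and Ebf3 at 39.1 CPM. With all barcodes included, the log2 ratios of the 5 genes stayed within their intervals.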

How the results depend on the processing

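No paired analysis was possible because each group had 1 library. With primary cluster 9 and the haematopoietic-like cultured cells left out, and again with primary clusters 9 and 11 and cultured clusters 3, 8 and 9 left out (added after the data had been seen), 1 gene, Foxc2, was at least 4-fold lower in place of 2, and the log2 ratio of Ebf2 was -0.43 and -0.39, since the first setting removes the cells that held most of the primary Ebf2. In the other 6 alternatives 0 genes were at least 4-fold higher and 2 lower. Over all alternatives the log2 ratios lay between -2.41 and -2.16 for Foxc2, -2.94 (each cell weighing the same) and -0.39 for Ebf2, 0.73 and 1.09 for Ebf3, -0.19 and 0.06 for Foxc1 and -0.17 and 0.07 for Ebf1, so that the sign for Foxc1 and Ebf1 depended on TMM scaling. The genes at least 4-fold apart numbered 2575, against 1488 at a minimum of 10 CPM and 3950 without a minimum, as fewer and more genes were compared. Without thinning, 5 genes in place of 3 had a higher share of cells in culture, and with 10000 UMIs or at least 2 UMIs per cell 2 had. The Ebf1 levels of cultured clusters lay 8.86-fold apart, and 15.2-fold at resolution 1.0, 24.3-fold with 30 principal components and 15.4-fold with the members among the genes. The cause was not tested. The ratio of Cxcl12 in cells with and without Foxc1 was 1.49 at 10000 UMIs, and the intervals of 2 pairs again did not reach 1. Differences between animals, preparations or sequencing runs could not be told apart from the effect of culture.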

Other observations

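Of 10 mesenchymal transcription factors, 5 were at least 4-fold higher in cultured CDSCs and 1 lower, with a median log2 ratio of 1.82. Prrx1 stood at 48.5 and 482 CPM, Prrx2 at 3.06 and 261 CPM, Nr2f2, a factor of stromal and venous cells, at 8.05 and 83.2 CPM, Twist1 at 6.80 and 50.9 CPM and Twist2 at 3.70 and 27.0 CPM. Meox2 was lower, at 3.96 and 0.939 CPM. Of the osteogenic factors, Atf4 was lower, at 715 and 174 CPM, while Runx2 stood at 110.0 and 112 CPM.

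A forkhead gene outside the rule for named genes, chosen after its values were seen, was the furthest apart of its family. Foxa3, better known from liver, had 8650 UMIs in primary CDSCs, or 63.1 CPM, more than Foxc2, and 13 UMIs in cultured CDSCs.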
